A study of Mus musculus with 19 samples.

Results

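The adrenergic receptors described here are the products of 6 genes, Adrb1, Adrb3, Adra1a, Adra1b, Adra2a and Adra2b. They were chosen by symbol in the gene name columns of 3 tables of mouse RNA-Seq and are 6 of the 55740 genes that the tables list between them. All 6 are listed in the table of 7 tissues (55573 genes) and in that of brown adipose tissue (BAT, 55487 genes), and 5 are listed in that of inguinal white adipose tissue (iWAT, 13756 genes), which lacks Adra2b. The alpha receptor genes Adra1d and Adra2c are given beside them for context.

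The study asked how Musclin, a peptide secreted by muscle and encoded by Ostn, acts on fat. The first table holds 1 library each of tibialis anterior muscle, heart, liver, white adipose tissue, brown adipose tissue, small intestine and brain from untreated C57BL/6J wild-type (WT) mice on chow, whose white fat depot is not stated. The other tables hold iWAT and BAT of MCK-Musclin mice and their WT controls, with 3 libraries in each of 4 groups and 12 in all. All of these mice were males 5 months old that had been kept at 8 °C for 1 week.

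MCK-Musclin mice carry the Musclin coding sequence under the muscle creatine kinase (MCK) promoter, which is active in skeletal muscle, and come from several founder lines backcrossed to C57BL/6J. The WT controls lack the transgene and had the same cold exposure, so no library of either fat depot in the genotype comparison was free of cold. The values are FPKM, fragments scaled by exon length and by library size, so levels can be set side by side between genes on a scale per length. There is no replicate in the tissue table, and it was given no test.

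Adrenergic receptors sit in the cell membrane and bind noradrenaline from sympathetic nerves and adrenaline from the adrenal gland. Beta receptors act through the stimulatory G protein to raise cyclic AMP, which activates protein kinase A and, in fat cells, lipolysis and heat production by Ucp1. Alpha-1 receptors act through Gq and phospholipase C to release calcium, while alpha-2 receptors act through inhibitory G proteins to lower cyclic AMP, and cold raises sympathetic outflow to brown and inguinal fat.

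The smallest steps between low FPKM values, taken as 1 fragment each, put the depth at 16.2 M fragments (M for mega) in small intestine to 18.5 M in brown adipose tissue of the tissue table. They gave 17.0 to 21.3 M in the BAT libraries and 20.4 to 21.7 M in 5 of the iWAT libraries, while iWAT WT 3 gave none. The iWAT depths are less sure, since 12 to 15 of 86 to 94 values examined lay on a step in those 5 libraries. For BAT 558 to 588 of 3186 to 3312 values did. At this depth 3 fragments of Adrb1 correspond to 0.0549 FPKM in brown adipose tissue and 0.0574 in tibialis anterior muscle, so a value of 0 allows a level of about that size, for counting error only. Brown adipose tissue gave 52.4% of its summed FPKM to its 10 most abundant genes, and white adipose tissue 17.0%.

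The tissue labels were checked against marker genes. Adipoq, an adipocyte hormone, had 1699 FPKM in white and 534 in brown fat and 0.714 or less in the other 5 tissues, and Ucp1, the heat-producing uncoupling protein, had 467 in brown adipose tissue and 0 in white. Alb marked liver (22399), Myh4 tibialis anterior muscle (16821), Vil1 small intestine (443) and Snap25 brain (4072). Heart had 14088 FPKM of Myh6, but Myl7, the atrial myosin light chain, had 3.52 there and 3.54 in small intestine.

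Some iWAT libraries stood apart. Summed over 5 fast skeletal muscle markers, with Tnnt3 the most abundant, the level was 3.70 FPKM in WT 1, 393 in WT 2 and 2132 in WT 3, against 4.21, 69.2 and 82.6 in MCK-Musclin 1, 2 and 3. WT 1 and MCK-Musclin 1 therefore held almost no muscle RNA, with 2 of the 5 markers at 0, and WT 3 held the most. Ostn, named here after its values were seen, was at 0, 0 and 0.225 FPKM in WT iWAT and at 0, 5.17 and 4.21 in MCK-Musclin iWAT. MCK-Musclin 1, without Ostn RNA in this depot, was also the MCK-Musclin library with the least muscle RNA, and the link was not tested. In BAT it was at 0 in the 3 WT libraries and at 37.9, 31.6 and 30.3 in the 3 MCK-Musclin libraries.

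The first question was where each receptor gene is expressed. White adipose tissue was dominated by Adrb3, brown adipose tissue held Adrb3, Adrb1, Adra1a and Adra1d together, and liver was led by Adra1b. Heart had similar levels of Adra1b, Adra1a and Adrb1, and brain expressed Adrb1, Adra1b, Adra1d and Adra2a. In bulk tissue, a difference in the number of cells of a type and a difference in RNA per cell cannot be told apart.

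Adrb3 (ENSMUSG00000031489, GRCm38 chromosome 8 from 27225776 to 27250616, minus strand) encodes the beta-3 receptor, the main beta receptor of rodent fat cells. It had 339 FPKM in white adipose tissue, 23.1 in brown adipose tissue, 3.25 in liver, 0.302 in brain, 0.0222 in small intestine and 0 in heart and tibialis anterior muscle. White adipose tissue was thus far above every other library and the only other tissue above 5 FPKM was brown fat. With 0.1 added to each FPKM, white adipose tissue was 14.6 times brown, or 24.8 times with each library rescaled to the same sum (TPM) and 9.22 times with median-ratio scaling, and it held 92.7% of the Adrb3 FPKM summed over the tissues. Exons of Adrb3 overlap the gene Gm45470, and strand was not used in counting, so the fragments of these genes were not separated by strand.

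Adrb1 (ENSMUSG00000035283, chromosome 19 from 56722199 to 56733113, plus strand) encodes the beta-1 receptor, which drives heart rate and contraction and is also present in brown fat. It had 9.16 FPKM in brown adipose tissue, 5.59 in brain, 3.25 in heart, 1.83 in white adipose tissue, 0.354 in small intestine, 0.0276 in liver and 0 in tibialis anterior muscle. Brown adipose tissue was 1.63 times brain with 0.1 added, and the order of these tissues reversed under TPM, where brain was 1.10 times brown adipose tissue. The value in liver lay below that of 3 fragments and cannot be told from 0.

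The promoter of Adrb1 is printed because Adrb1 was the single member whose genotype groups in iWAT did not overlap, as given below. The 250 bases before its start in RefSeq (GRCm38.p6, plus strand, chr19:56721867-56722116) are in lower case, with capitals for ATTGG, the CCAAT box on the opposite strand, which begins 106 bases before the start, and for TGACG, the core of the cyclic AMP response element, which begins 90 bases before it.
Adrb1 promoter: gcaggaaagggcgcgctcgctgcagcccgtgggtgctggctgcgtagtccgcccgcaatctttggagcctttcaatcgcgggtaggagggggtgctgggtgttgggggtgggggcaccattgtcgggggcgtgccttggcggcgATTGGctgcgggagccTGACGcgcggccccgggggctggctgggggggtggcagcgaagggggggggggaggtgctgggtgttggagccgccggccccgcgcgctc

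The window is rich in G and C, at 74% against a median of 52.4% over the 32851 promoter windows in the table, and it holds 24 CpG against a median of 6. Both strands were searched for each motif. TGACG or its reverse CGTCA is found in 17.8% of all windows and CCAAT or ATTGG in 33.8%. The full element TGACGTCA, in 1.55% of all windows, and the TATA box, searched as TATAAA or TTTATA and found in 12.4%, are not in these letters. A GC box, searched as GGGCGG or CCGCCC and found in 32.7% of windows, begins 202 bases before the start. These features are not particular to Adrb1 among the members. The windows of Adra2a and Adra2b and 1 of the 2 Adra1b windows are 66% to 72.8% G and C with 22 or 23 CpG. The other Adra1b window is 41.6% with 3 CpG. Adra2a also holds TGACG, Adra1b and Adra2b also hold a CCAAT box, and Adra1b, Adra2a and Adra2b also hold a GC box. Adra2a holds a TATA box, which Adrb1 lacks. A match describes letters and is neither a binding site nor a cause, and 4 of the 6 members (Adrb1, Adra1b, Adra2a and Adra2b) have a promoter in the table.

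Adra1a (ENSMUSG00000045875, chromosome 14 from 66635251 to 66771168, plus strand) encodes the alpha-1A receptor, a Gq-coupled receptor of heart, vessels and brain. It had 6.84 FPKM in brown adipose tissue, 4.49 in heart, 1.03 in brain, 0.960 in liver, 0.895 in white adipose tissue, 0.216 in tibialis anterior muscle and 0 in small intestine. Brown adipose tissue and heart were well above the rest, and brown was 1.51 times heart with 0.1 added.

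Adra1b (ENSMUSG00000050541, chromosome 11 from 43774606 to 43901210, minus strand) encodes the alpha-1B receptor, through which catecholamines promote glycogen breakdown in rodent liver. It had 16.6 FPKM in liver, 4.52 in heart, 4.20 in brain, 0.597 in white adipose tissue, 0.0324 in brown adipose tissue and 0 in tibialis anterior muscle and small intestine. Liver was 3.61 times heart, the next tissue, and held 63.9% of the summed FPKM. The alpha-1 receptor gene Adra1d, for context, had 5.27 FPKM in brown adipose tissue, 3.06 in brain, 2.41 in white adipose tissue, 1.07 in heart and 0 in the other 3 tissues.

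Adra2a (ENSMUSG00000033717, chromosome 19 from 54044151 to 54048982, plus strand) encodes the alpha-2A receptor, which restrains noradrenaline release from nerve endings and lipolysis in fat cells. It had 3.01 FPKM in brain, 2.89 in small intestine, 0.152 in white adipose tissue, 0.0111 in brown adipose tissue and 0 in heart, tibialis anterior muscle and liver. Brain and small intestine were alike, at a ratio of 1.04, and fat was close to 0.

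Adra2b (ENSMUSG00000058620, chromosome 2 from 127363208 to 127367221, plus strand) encodes the alpha-2B receptor, known from vessels and the brain. It was between 0 in small intestine and 0.107 FPKM in white adipose tissue and liver, so no tissue reached 1 FPKM and no tissue stood out. White adipose tissue was 1.00 times liver with 0.1 added, while with median-ratio scaling liver was highest, at 1.34 times heart. Adra2c had 0.595 FPKM in brain and 0.142 or less elsewhere.

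**Figure D1:**
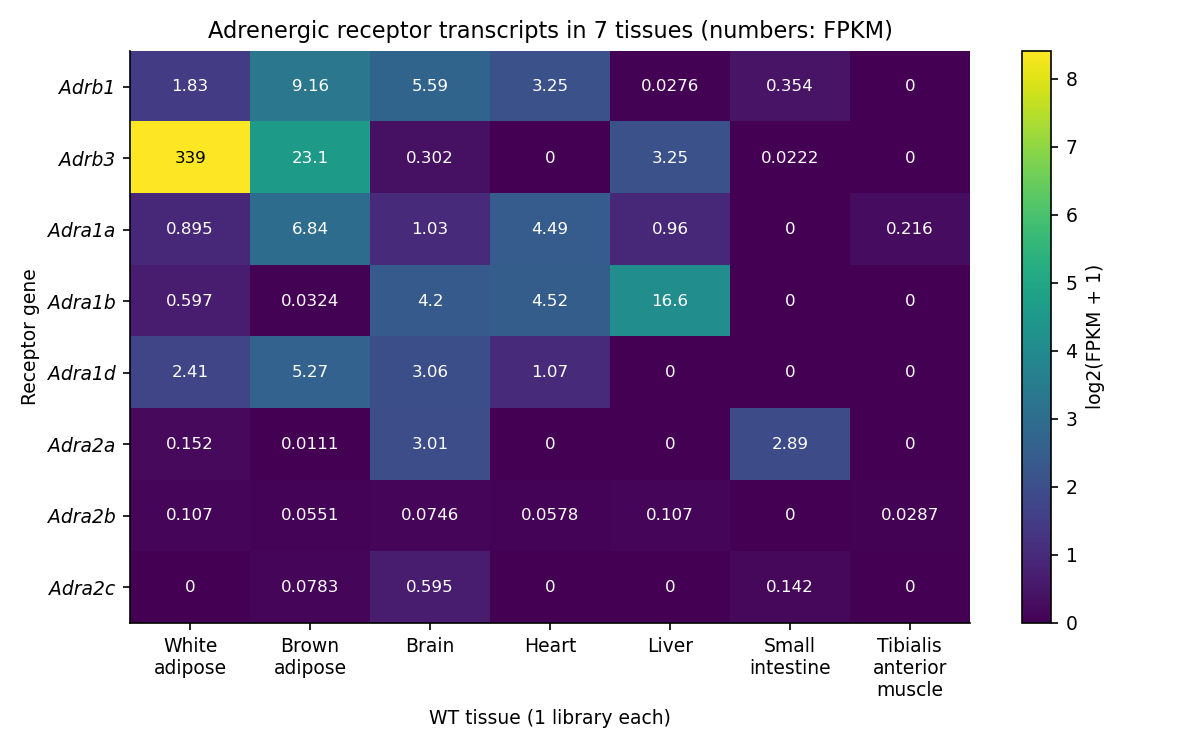
Levels of 8 adrenergic receptor genes (vertical axis) in 1 library of each of 7 tissues (horizontal axis), with FPKM printed in each cell and log2(FPKM + 1) as colour. Adrb3 in white adipose tissue (339 FPKM) is the highest value, followed by Adrb3 in brown adipose tissue (23.1) and Adra1b in liver (16.6).

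Genes with a like tissue pattern were sought by Pearson's r of log2(FPKM + 1) over the 7 libraries, among 10041 genes that reached 10 FPKM in a tissue. Each point is a tissue with its own depth and composition, so r is a description over 7 values and says nothing of shared control. The genes most like Adrb3 were Twist1 (r 0.987), Car5b (0.982), Rsu1 (0.967), Lep (0.966) and Ctcflos (0.966). Lep, which encodes the fat hormone leptin, had 567 FPKM in white and 73.2 in brown adipose tissue and 0.239 or less in the other 5 tissues.

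The genes most like Adrb1 were Pcmtd2 (r 0.963), Cep63 (0.951), Tatdn3 (0.9496), Mamld1 (0.931) and Cyth1 (0.931). For Adra1a they were Tbx5 (0.901), Kcnk3 (0.898), mt-Tg (0.893), Ndufb3 (0.885) and mt-Tr (0.879). Tbx5, a transcription factor of heart and forelimb development, had 12.6 FPKM in heart and 6.66 in brown adipose tissue. For Adra1b they were Prox1 (0.978), Masp1 (0.951), Clu (0.935), Kcnn2 (0.905) and Gfra1 (0.896), and for Adra2a Plch2 (0.999), Kcnk1 (0.998), Chgb (0.997), Spire2 (0.995) and Jakmip1 (0.995).

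How common such likeness was differed between members. An r above 0.95 was found for 59 genes with Adra2a, 14 with Adrb3, 2 with Adrb1, 2 with Adra1b and 0 with Adra1a. Adra2b reached 1 FPKM in no tissue and was not compared.

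The balance of the members was taken as their share of the FPKM summed over the 6 genes of a library, which no scaling between libraries alters. In iWAT the sum is over 5 genes, since Adra2b is not listed there. Adrb1 and Adrb3 together held 99.5% in white adipose tissue, 82.3% in brown adipose tissue, 41.5% in brain, 26.4% in heart, 15.6% in liver and 11.5% in small intestine. Adra1a and Adra1b held 83.8% in liver, 73.1% in heart, 36.9% in brain, 17.5% in brown adipose tissue and 0.436% in white adipose tissue. Adra2a and Adra2b held 88.5% in small intestine, 21.7% in brain and 0.509% or less in heart, liver and both fats. In tibialis anterior muscle the 6 genes summed to 0.244 FPKM, of which Adra1a was 88.2%.

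The ratio of Adrb3 to Adrb1 in FPKM was 185 in white fat, 2.52 in brown fat and 0.0540 in brain, each from 1 library. In cold WT libraries it was 12.8 to 38.1 in iWAT and 3.11 to 11.1 in BAT, and the tissue libraries give no spread. The tissue libraries came from untreated mice and their white fat depot is not stated. Cold therefore cannot be told apart here from depot or from the set of mice.

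**Figure D2:**
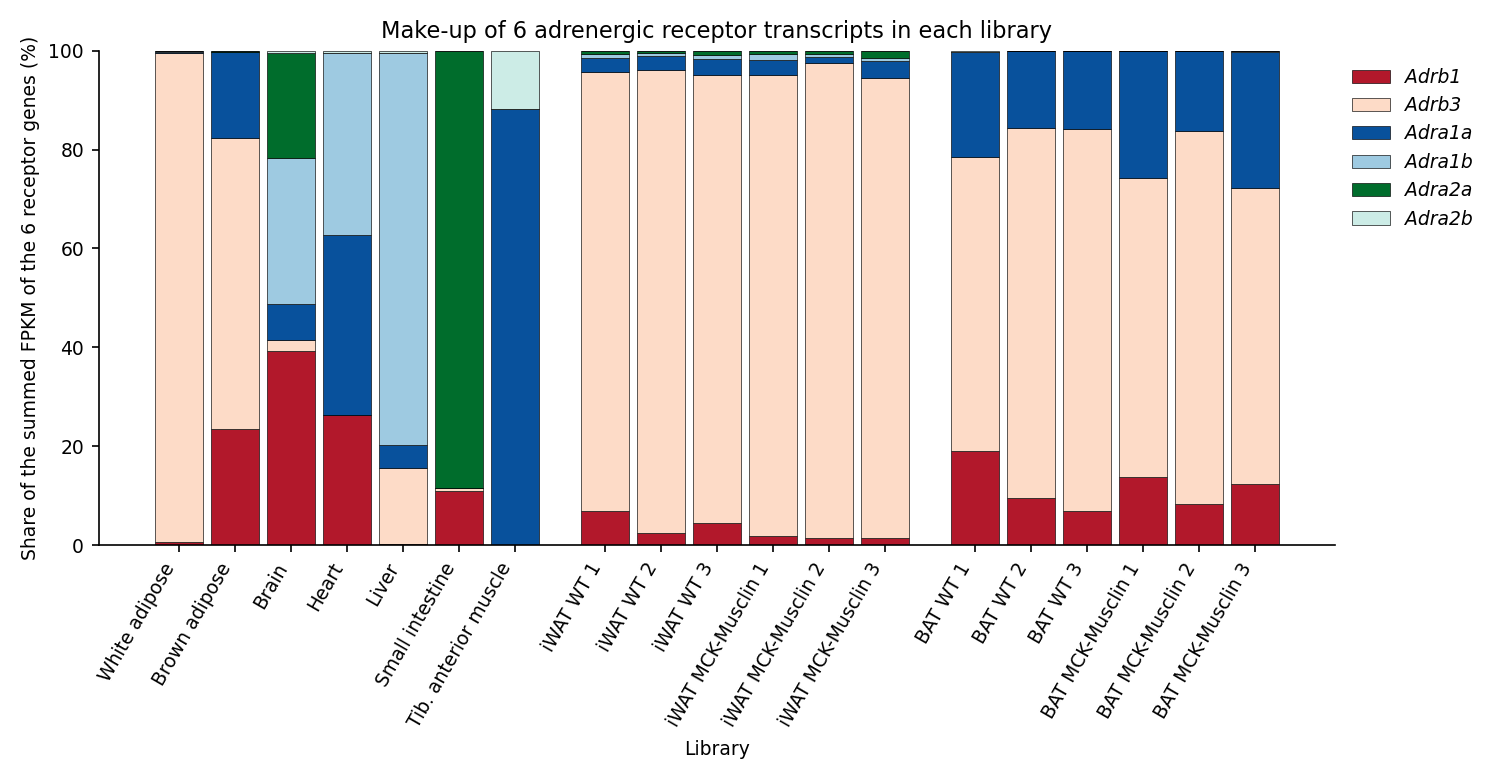
Share in percent (vertical axis) of each of the 6 members in their summed FPKM, stacked for each library (horizontal axis) of the 7 tissues, cold iWAT and cold BAT. In iWAT the sum is over 5 members, as Adra2b is not listed there. Adrb1 and Adrb3 together hold 94.6% to 97.6% in the 6 cold iWAT libraries and 72.3% to 84.4% in the 6 cold BAT libraries.

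The next question was how the receptors stand in fat after cold. Cold iWAT was dominated by Adrb3 in both genotypes, with every other member below 5 FPKM. Cold BAT was also led by Adrb3, followed by Adra1a and Adrb1. The tables were normalised separately and hold different numbers of genes, so levels are not tested between them.

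In WT iWAT the mean was 72.1 ± 19.4 FPKM for Adrb3 (SD, n = 3), followed by Adrb1 (3.37), Adra1a (2.37), Adra1d (1.00), Adra1b (0.536) and Adra2a (0.517). The libraries of neighbours overlapped for Adrb1 and Adra1a and for Adra1b and Adra2a, so these are not ordered beyond their spread. In MCK-Musclin iWAT Adrb3 (74.4 ± 17.6; SD, n = 3) again stood above the rest, and Adra1a (1.85), Adrb1 (1.22), Adra1d (1.12), Adra2a (0.728) and Adra1b (0.628) each overlapped the next.

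In WT BAT the order was Adrb3 (41.2 ± 18.0 FPKM; SD, n = 3), Adra1a (9.66), Adrb1 (6.18) and Adra1d (1.31), and no neighbours among these overlapped. In MCK-Musclin BAT it was Adrb3 (34.2 ± 15.1; SD, n = 3), Adra1a (11.2), Adrb1 (5.61) and Adra1d (1.45), again with no overlap of neighbours. Adra1b, Adra2a, Adra2b and Adra2c were at 0.0800 FPKM or less in every BAT library.

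Adra1a and Adra1b made up 1.81% to 4.28% of the summed FPKM of the members in cold iWAT and 15.6% to 27.6% in cold BAT. Adra2a, the listed alpha-2 gene there, made up 0.502% to 1.51% in iWAT. The ratio of Adrb3 to Adrb1 in BAT was 3.11, 7.90 and 11.1 in WT and 4.43, 8.97 and 4.89 in MCK-Musclin libraries, so the genotypes overlapped.

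**Figure D3:**
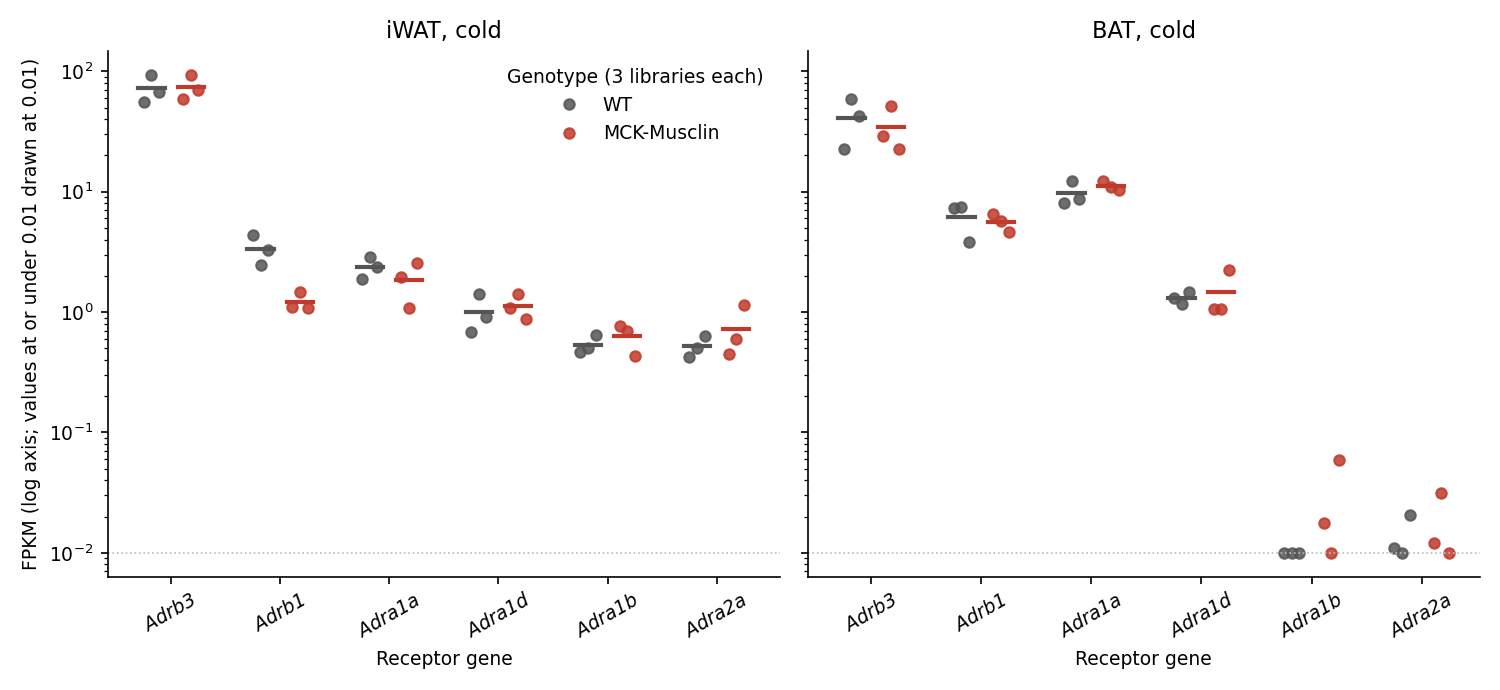
FPKM on a log axis (vertical) of 6 adrenergic receptor genes (horizontal) in cold iWAT and cold BAT, with 1 point per library, bars at the mean of 3 libraries and values of 0.01 or less drawn at 0.01. Adrb1 in iWAT is the gene whose WT points (2.46 to 4.37) and MCK-Musclin points (1.08 to 1.47) lie apart.

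The genotype comparison in iWAT asked whether a muscle transgene of Musclin goes with other receptor levels in white fat after cold. Adrb1 was lower in all 3 MCK-Musclin libraries than in any WT library, and its mean FPKM was 3.37 ± 0.960 in the WT group and 1.22 ± 0.216 in the transgenic group (SD, n = 3 each). Adrb3, the dominant receptor gene, lay in the same range in both genotypes. Adra1a, Adra1b and Adra2a overlapped between the genotypes as well.

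The genotypes were compared with limma on log2(FPKM + 1) over the genes with a mean of at least 1 FPKM, with p-values adjusted over all of them. In iWAT 3 of the 5 listed members passed this filter (Adrb1, Adrb3 and Adra1a) and 2 were below it. A second rule, the cutoff in the study's figure legends, asks for an unadjusted p under 0.05 and a log2 change beyond 0.5. By its methods the study used DESeq2, so the cutoff is applied here to a different test.

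In iWAT, Adrb1 had 4.37, 2.46 and 3.28 FPKM in WT 1, 2 and 3 and 1.10, 1.47 and 1.08 in MCK-Musclin 1, 2 and 3. The groups did not overlap, WT 1 was the highest library, and the lowest WT library was still above the highest MCK-Musclin library. The mean FPKM was 2.77 times as high in WT, and the log2 change was -0.96 (SE 0.18, 95% confidence interval -1.38 to -0.54). Adrb1 did not pass the adjusted test (limma adjusted p = 0.143), and it ranked 74 of 12197 genes by unadjusted p. The exact two-sided permutation p was 0.1, the smallest that 3 against 3 allows.

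Read against all genes of iWAT, limma called 0 of 12197 genes (0%) at an adjusted p under 0.05, none of the members among them, and 2012 had an unadjusted p under 0.05. Of the 3 members tested, 1, Adrb1, was past the cutoff, against 5.94% of all genes in either direction, 0.902% lower and 5.04% higher in MCK-Musclin. The genes past it as lower numbered 110, but 213 of 12216 without WT 1 and 178 of 12182 without MCK-Musclin 1. They numbered 187 of 12183 with median-ratio scaling and 26 of 12197 with libraries centred on general adipocyte markers. Groups that did not overlap were found for 1 of the 3 members and for 23.3% of all genes. A log2 change as low as that of Adrb1 was seen in 0.615% of the genes tested.

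The call of Adrb1 by the cutoff held in all 14 alternative settings that tested it. Only the 3 rescalings could have ended the separation of its groups, which held in them, since neither a library left out nor the other 5 settings can make separate groups overlap. Adrb1 passed the adjusted test in 1 of the 14, centring each library on 8 general adipocyte markers (log2 change -0.76, limma adjusted p = 0.0363, within 0.0363 to 0.372 over the alternatives). That centring moved the median log2 change of all genes in iWAT from 0.06 to 0.26, and 1941 genes passed the adjusted test. The unadjusted limma p of Adrb1 was larger there, at 0.00311 against 0.00097 in the main fit. An unadjusted p under 0.05 was found for 4784 genes there, against 2012. Without WT 1 the log2 change of Adrb1 was -0.80, and without WT 3, the library richest in muscle RNA, -0.96. It was -0.93 without MCK-Musclin 1, which had no Ostn RNA and almost no muscle RNA.

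The ratio of Adrb3 to Adrb1 was 12.8, 38.1 and 20.4 in WT and 53.7, 64.0 and 65.0 in MCK-Musclin iWAT, so all WT libraries lay below all MCK-Musclin libraries. Adrb1 was 7.25%, 2.56% and 4.68% of the FPKM of the pair in WT and 1.83%, 1.54% and 1.52% in MCK-Musclin libraries. The ratio uses the same Adrb1 values and was not tested.

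Marker genes of other cell types were read in the same libraries, and none passed the adjusted test in iWAT. The 3 brown adipocyte markers (Ucp1, Cox7a1 and Dio2) summed to 213, 432 and 550 FPKM in WT and 269, 72.2 and 14.9 in MCK-Musclin iWAT, with Ucp1 most abundant in 4 libraries and Cox7a1 in MCK-Musclin 2 and 3, and no marker was at 0 in any library. Ucp1 and Cox7a1, 2 of the 3, were past the cutoff as lower, and the groups overlapped. The call of Cox7a1 (log2 change -1.97) ended without WT 2 (-1.81) and without WT 3 (-1.74), and that of Ucp1 held in 1 of the 6 fits with a library left out, the one without MCK-Musclin 1 (-4.31), and ended with robust eBayes and with the replicate number as a block. WT 1, highest in Adrb1, had the lowest brown marker sum among WT libraries. MCK-Musclin 1, low in Adrb1, had a higher sum than WT 1. WT 2 and WT 3 were above MCK-Musclin 2 and MCK-Musclin 3 in both Adrb1 and the brown marker sum. The part of the brown markers in the lower Adrb1 was not tested.

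B cell markers were past the cutoff as higher for 4 of 4 genes, with sums of 211, 124 and 109 FPKM in WT and 239, 326 and 317 in MCK-Musclin iWAT, Cd79a the most abundant and none at 0. The call of Cd79b ended without WT 2 (0.67), without WT 3 (0.71) and without MCK-Musclin 2 (0.67). T cell markers were higher for 3 of 5 genes (87.2, 70.5 and 88.2 against 131, 123 and 129 FPKM, Cd3g the most abundant), and macrophage markers for 1 of 4, Cd68 (148, 118 and 133 against 203, 133 and 195, Cd68 the most abundant). The call of Cd68 ended without WT 2 (0.44), without MCK-Musclin 1 (0.58) and without MCK-Musclin 3 (0.59). All 4 B cell and all 5 T cell genes were separate and higher in MCK-Musclin libraries, and 0 of the 4 macrophage genes were separate. The B cell and T cell sums did not overlap between genotypes either. Of all genes 23.3% were separate in either direction. General adipocyte markers were past the cutoff for 0 of 8 genes, with sums of 16070, 16855 and 17134 FPKM in WT and 14362, 14893 and 15950 in MCK-Musclin libraries and Fabp4 the most abundant. All 3 MCK-Musclin sums were below all WT sums, as for Adrb1, with a median log2 change of -0.15. Of the 8 genes 2 were separate and lower, against 23.3% of all genes separate in either direction.

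Of the fast skeletal muscle markers 0 of 5 were past the cutoff in iWAT. Their median log2 change was -2.28 against 0.06 for all genes, and their sums overlapped (3.70, 393 and 2132 FPKM in WT, 4.21, 69.2 and 82.6 in MCK-Musclin libraries, Tnnt3 the most abundant). Without WT 1 all 5 were past it as lower, at -5.09 (Myh4) to -3.83 (Acta1), against 8.65% of all genes past it in either direction. Adrb1 was at 0 in the tibialis anterior library. Markers of vascular smooth muscle, endothelium and Schwann cells were past it for 0 of 4 genes each. Their sums overlapped between genotypes, at 103 to 195 FPKM for smooth muscle, 172 to 211 for endothelium and 19.2 to 35.0 for Schwann cells. The part of the marker genes in the lower Adrb1 was not tested.

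**Figure D4:**
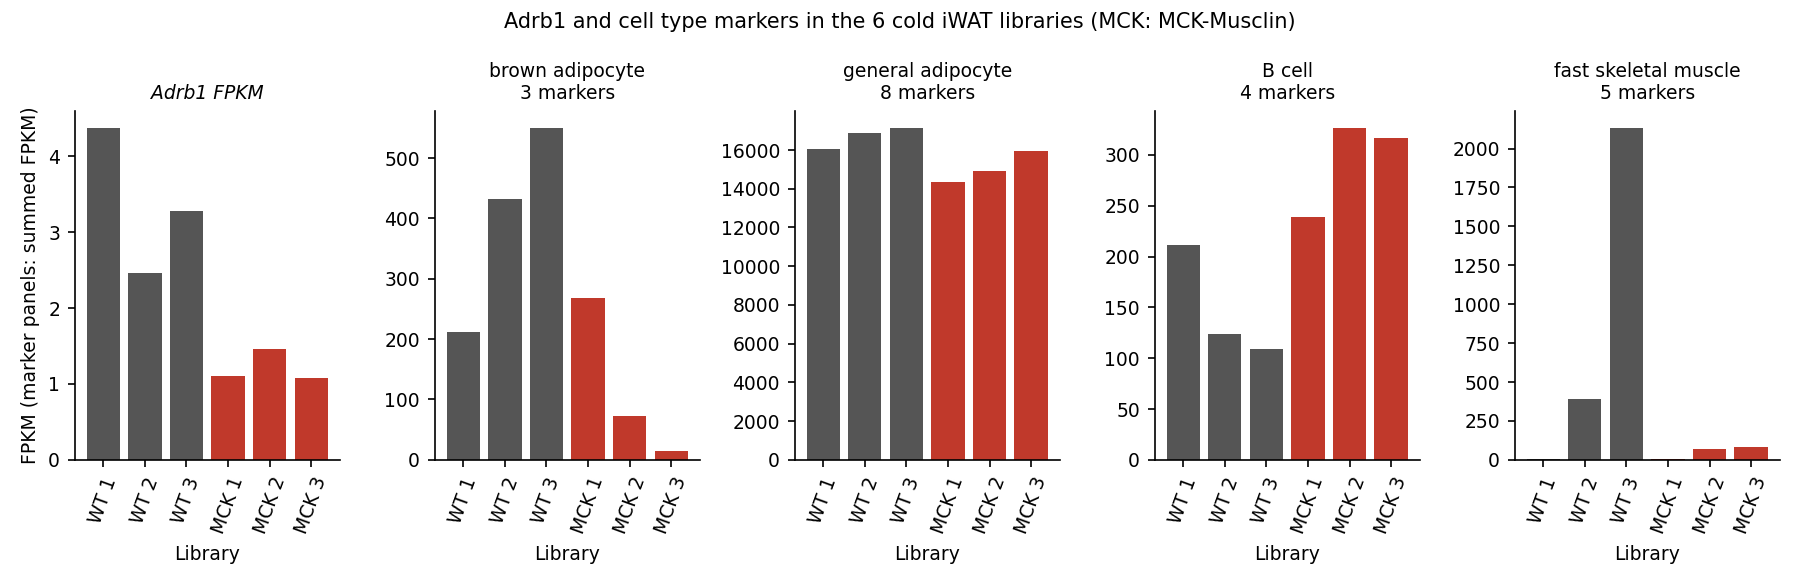
FPKM (vertical axes, 1 panel each) of Adrb1 and of the summed brown adipocyte, general adipocyte, B cell and fast skeletal muscle markers in the 6 cold iWAT libraries (horizontal axis), with 1 bar per library. Adrb1 is 2.46 to 4.37 in WT and 1.08 to 1.47 in MCK-Musclin libraries, while the brown marker sums (213 to 550 and 14.9 to 269) overlap.

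Adrb3 in iWAT had 55.9, 93.6 and 66.9 FPKM in WT and 59.3, 93.7 and 70.2 in MCK-Musclin libraries. The groups overlapped, and library 2 of each genotype was the highest. The log2 change was 0.05 (SE 0.23, 95% confidence interval -0.48 to 0.58, limma adjusted p = 0.933). With the replicate number as a block it was the same, with a smaller SE of 0.09 (limma adjusted p = 0.813). Its direction was not settled, since it was -0.0015 under TPM, -0.03 with median-ratio scaling and -0.13 without MCK-Musclin 2.

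Adra1a in iWAT had 1.88, 2.85 and 2.37 FPKM in WT and 1.96, 1.07 and 2.53 in MCK-Musclin libraries. MCK-Musclin 2 was the lowest and the other libraries were mixed. The log2 change was -0.26 (SE 0.22, 95% confidence interval -0.77 to 0.25, limma adjusted p = 0.581). Leaving out MCK-Musclin 2 gave -0.05 and leaving out MCK-Musclin 3 gave -0.43.

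Members below the filter are given by their values alone. Adra1b had 0.462, 0.498 and 0.649 FPKM in WT and 0.760, 0.689 and 0.434 in MCK-Musclin iWAT (exact permutation p = 0.5). Adra2a had 0.423, 0.502 and 0.627 in WT and 0.449, 0.595 and 1.14 in MCK-Musclin iWAT (exact permutation p = 0.6). Both overlapped, and the single high Adra2a value was in MCK-Musclin 3. The context gene Adra1d (0.685 to 1.42 FPKM) overlapped too.

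The same comparison in BAT asked whether the receptors differ with genotype in the depot that makes most heat in cold. The 6 members showed no separation of the genotypes in BAT, and the libraries within a genotype differed more than the group means for Adrb3, Adrb1 and Adra1a. Adrb3, Adrb1 and Adra1a passed the filter, and Adra1b, Adra2a and Adra2b were below it.

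Adrb3 in BAT had 22.7, 58.5 and 42.4 FPKM in WT and 29.0, 51.2 and 22.4 in MCK-Musclin libraries. Its lowest and highest values lay in different genotypes but the groups overlapped widely. The log2 change was -0.25 (SE 0.39, 95% confidence interval -1.15 to 0.66, limma adjusted p = 0.978), at -0.62 without WT 1 and 0.05 without WT 2.

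Adrb1 in BAT had 7.29, 7.41 and 3.83 FPKM in WT and 6.53, 5.71 and 4.58 in MCK-Musclin libraries. WT 3 was the lowest library and the other WT libraries were the highest. The log2 change was -0.09 (SE 0.23, 95% confidence interval -0.63 to 0.46, limma adjusted p = 0.988), at -0.35 without WT 3 and 0.05 without WT 2. Without WT 3 the groups no longer overlapped, with MCK-Musclin lower, as for 18.8% of all genes in that fit in either direction, and Adrb1 was not past the BAT cutoff.

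Adra1a in BAT had 8.09, 12.2 and 8.70 FPKM in WT and 12.2, 10.99 and 10.3 in MCK-Musclin libraries. WT 2 was nearly as high as the highest MCK-Musclin library, and the other WT libraries were below all 3 of them. The log2 change was 0.21 (SE 0.16, 95% confidence interval -0.16 to 0.57, limma adjusted p = 0.968). Without WT 2 it was 0.37, the groups no longer overlapped, and it was past the BAT cutoff of the study's legends, an unadjusted p under 0.05 and a log2 change beyond 0.3. In that fit the groups of 2179 of 10900 genes did not overlap and 4.55% of all genes were past the cutoff.

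The other members were near 0 in BAT. Adra1b was at 0 in the 3 WT libraries and at 0.0177, 0 and 0.0590 FPKM in MCK-Musclin libraries. Adra2a was at 0.0315 FPKM or less and Adra2b at 0.0800 or less in each library. A level of 3 fragments in BAT corresponds to 0.0423 to 0.0529 FPKM for Adra1b, 0.0292 to 0.0365 for Adra2a and 0.0351 to 0.0439 for Adra2b. Of these 18 values 4 reached that level, Adra1b in MCK-Musclin 3, Adra2a in MCK-Musclin 2 and Adra2b in WT 1 and WT 3.

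Read against all genes of BAT, 0 of the 3 members tested passed limma at an adjusted p under 0.05, where 1 of 10893 genes (0.00918%) did, which was Ostn, and 533 genes had an unadjusted p under 0.05. Past the cutoff were 0 of 3 members and 4% of all genes (2.15% lower and 1.85% higher), and groups that did not overlap were found for 0 of 3 members and 10% of all genes. In the same libraries the fast skeletal muscle markers were past the cutoff as higher for 5 of 5 genes, with sums of 268, 388 and 255 FPKM in WT and 850, 427 and 615 in MCK-Musclin BAT. The calls of Myh4 and Tnnt3 held without any single library, that of Acta1 ended without WT 1 (0.95), that of Ckm without WT 1 (0.74) and without WT 3 (0.76), and that of Pvalb without WT 2 (0.60) and without MCK-Musclin 3 (0.61). Among macrophage markers Csf1r, 1 of 4, was higher (sums of 9.95 to 12.2 against 12.1 to 25.6 FPKM), and no marker of brown adipocytes, general adipocytes, smooth muscle, endothelium or Schwann cells was past the cutoff. The brown adipocyte sum was 4752 to 5978 FPKM over the 6 libraries, and no B or T cell marker passed the filter.

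Whether the genotype difference itself differed between the depots was tested over 12 libraries and the 9757 genes that passed the filter in both tables. For Adrb1 the difference in iWAT was lower than that in BAT by a log2 value of -0.87 (SE 0.32), which did not pass the adjusted test (limma adjusted p = 0.435, unadjusted p = 0.0176). It was 0.30 (SE 0.50, limma adjusted p = 0.891) for Adrb3 and -0.47 (SE 0.28, limma adjusted p = 0.601) for Adra1a. limma called 0 of 9757 genes (0%) here, and 982 genes (10.1%) had an unadjusted p under 0.05, 1 of the 3 members among them. With a library left out the adjusted count was 8 without iWAT MCK-Musclin 1, 2 without iWAT MCK-Musclin 2, 1 without iWAT WT 3, 1 without BAT MCK-Musclin 3 and 0 in the other 8 fits. The lower Adrb1 is thus not shown to be particular to iWAT.

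The genes around the receptors were taken from 8 lists with 77 genes, from the supply of catecholamines to the targets of cyclic AMP. In iWAT 65 were tested, of which 4 were past the cutoff as higher and 4 as lower, 12.3% against 5.94% of all genes, and none passed the adjusted test. The groups of 19 (29.2%) did not overlap, against 23.3% of all genes, and the median log2 change was -0.01 against 0.06. The counts of higher and lower genes were 9 and 1 when centred on adipocyte markers and 3 and 6 with median-ratio scaling. With the replicate number as a block they were 4 and 2. They were 7 and 5 without WT 1, 1 and 1 without WT 2, 2 and 3 without WT 3, and 3 and 2 without MCK-Musclin 3. In BAT 57 were tested, of which 1 was higher and 0 lower (1.75% against 4%), with 2 (3.51%) not overlapping and a median of 0.07 against -0.01. The BAT counts were 2 and 1 without WT 1, and 2 and 0 without WT 2, without MCK-Musclin 2 and without MCK-Musclin 3.

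Catecholamine supply was covered by enzymes and transporters. In iWAT 4 genes were tested, 0 past the cutoff and the median log2 change -0.18, and in BAT 4, 0 and -0.01. Th, Ddc, Dbh and Pnmt, which make catecholamines, were at 0 in every BAT library and are not listed for iWAT, while Th had 5.43 FPKM in brain.

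Between receptor and cyclic AMP stand the G proteins and adenylyl cyclases. Of the G protein subunits 8 were tested in iWAT and 7 in BAT, 0 past the cutoff in either, with medians of -0.04 and 0.03. Gnas, the stimulatory subunit that beta receptors use, had 102, 108 and 131 FPKM in WT and 98.1, 99.9 and 94.4 in MCK-Musclin iWAT. These did not overlap, at a log2 change of -0.22 that was not past the cutoff. Groups did not overlap for 2 of the 8 subunits there, both lower, against 23.3% of all genes in either direction. Of the cyclases 6 were tested in iWAT, 1 higher and 1 lower with a median of -0.03, and 5 in BAT, with 0 past the cutoff and a median of 0.13.

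Adcy3, the cyclase most linked to fat, had 9.59, 17.0 and 20.7 FPKM in WT and 11.8, 7.60 and 6.55 in MCK-Musclin iWAT. MCK-Musclin 1 lay above WT 1, so the groups overlapped. Its log2 change of -0.77 (SE 0.30, limma adjusted p = 0.266) was past the cutoff as lower, and this call ended with the replicate number as a block, when centred on adipocyte markers (-0.57), without WT 2 (-0.69), without WT 3 (-0.55), without MCK-Musclin 2 (-0.71) and without MCK-Musclin 3 (-0.61). Adcy7, a cyclase of blood cells, was higher (0.64) in iWAT, a call that ended without WT 2 (0.63), without WT 3 (0.41) and without MCK-Musclin 3 (0.58).

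Phosphodiesterases break cyclic AMP down. In iWAT 8 were tested, 1 higher and 0 lower with a median of -0.16, and in BAT 9, with 0 past the cutoff and a median of 0.08. Pde4b had 4.50, 3.98 and 3.67 FPKM in WT and 6.16, 8.75 and 5.74 in MCK-Musclin iWAT, so all MCK-Musclin libraries were above WT. Its log2 change was 0.63 (limma adjusted p = 0.158), and 0.46 without MCK-Musclin 2, which ended the call. Pde3b, through which insulin opposes lipolysis, had 77.3, 94.4 and 85.2 in WT and 70.5, 69.3 and 71.6 in MCK-Musclin iWAT. These lay apart, but the log2 change of -0.27 was not past the cutoff. The 8 tested there included 3 without overlap, 2 lower and 1 higher, against 23.3% of all genes.

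Protein kinase A carries the signal on. None of its 9 subunits and inhibitors tested in iWAT and 7 in BAT was past the cutoff, with medians of 0.05 and 0.11. Prkar2b, the regulatory subunit typical of fat, had 260, 303 and 302 FPKM in WT and 215, 200 and 217 in MCK-Musclin iWAT. These did not overlap, at a log2 change of -0.45 (limma adjusted p = 0.148). No overlap was found for 3 of the 9 genes there, Prkar2b and Prkar2a lower and Prkacb higher, against 23.3% of all genes.

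Receptor kinases, arrestins and RGS proteins switch receptors and G proteins off. Of 11 tested in iWAT 0 were past the cutoff, with a median of 0.09. The groups did not overlap for 3 of the 11, against 23.3% of all genes in either direction. These were Grk6, Arrb2 and Rgs16, all higher in MCK-Musclin iWAT. Of 9 tested in BAT 1 was past the cutoff as higher, with a median of 0.02. That gene, Arrb2, encoding an arrestin, had 6.09, 4.46 and 4.70 FPKM in WT and 7.01, 5.85 and 7.54 in MCK-Musclin BAT, with WT 1 above MCK-Musclin 2. Its log2 change was 0.36 (limma adjusted p = 0.968), and the call ended without WT 2 (0.29), without WT 3 (0.32), without MCK-Musclin 1 (0.34) and without MCK-Musclin 3 (0.29).

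The effectors of alpha-1 receptors are phospholipase C, the calcium channels it opens and protein kinase C. In iWAT 10 were tested, 2 higher and 1 lower with a median of 0.08, and in BAT 7, with 0 past the cutoff and a median of 0.12. Plcb1 had 11.9, 15.3 and 14.1 FPKM in WT and 8.78, 8.94 and 8.45 in MCK-Musclin iWAT, so every MCK-Musclin library was below WT. Its log2 change was -0.59 (SE 0.11, limma adjusted p = 0.143), past the cutoff without any single library, and -0.39 and not past it when centred on adipocyte markers.

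Plcb2 and Prkcd, which are known from blood cells, were the higher effectors in iWAT. Plcb2 had 5.79, 3.98 and 4.55 FPKM in WT and 7.35, 7.08 and 8.21 in MCK-Musclin libraries, a log2 change of 0.58 that was 0.48 and not past the cutoff without WT 2. Prkcd had 24.0, 16.3 and 16.9 in WT and 28.4, 27.3 and 28.4 in MCK-Musclin libraries, a log2 change of 0.55 that was not past the cutoff without WT 2 (0.46), without WT 3 (0.48) or with median-ratio scaling (0.48). Both were separate between the genotypes, as were the B cell marker sums above, whose part in them was not tested.

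The last list holds genes that cyclic AMP is known to induce. In iWAT 10 were tested, 1 higher (Pde4b, already counted) and 2 lower with a median of -0.25, and in BAT 10, with 0 past the cutoff and a median of 0.07. Ucp1 had 130, 248 and 346 FPKM in WT and 173, 31.6 and 2.91 in MCK-Musclin iWAT, so MCK-Musclin 1 lay within the WT range. Its log2 change was -2.998 (SE 1.21, limma adjusted p = 0.282), and the call by the cutoff ended without WT 1 (-3.39), without WT 2 (-2.92), without WT 3 (-2.68), without MCK-Musclin 2 (-3.10) and without MCK-Musclin 3 (-1.58). It also ended with robust eBayes and with the replicate number as a block, where the log2 change is the same.

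Ppargc1a, a coactivator of mitochondrial genes, had 7.16, 7.23 and 6.51 FPKM in WT and 6.34, 2.96 and 2.01 in MCK-Musclin iWAT. All MCK-Musclin libraries were below WT, MCK-Musclin 1 by little. Its log2 change was -0.84 (limma adjusted p = 0.233), and the call ended without WT 1 (-0.82), without WT 2 (-0.82), without MCK-Musclin 2 (-0.76), without MCK-Musclin 3 (-0.56) and when centred on adipocyte markers (-0.64).

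**Figure D5:**
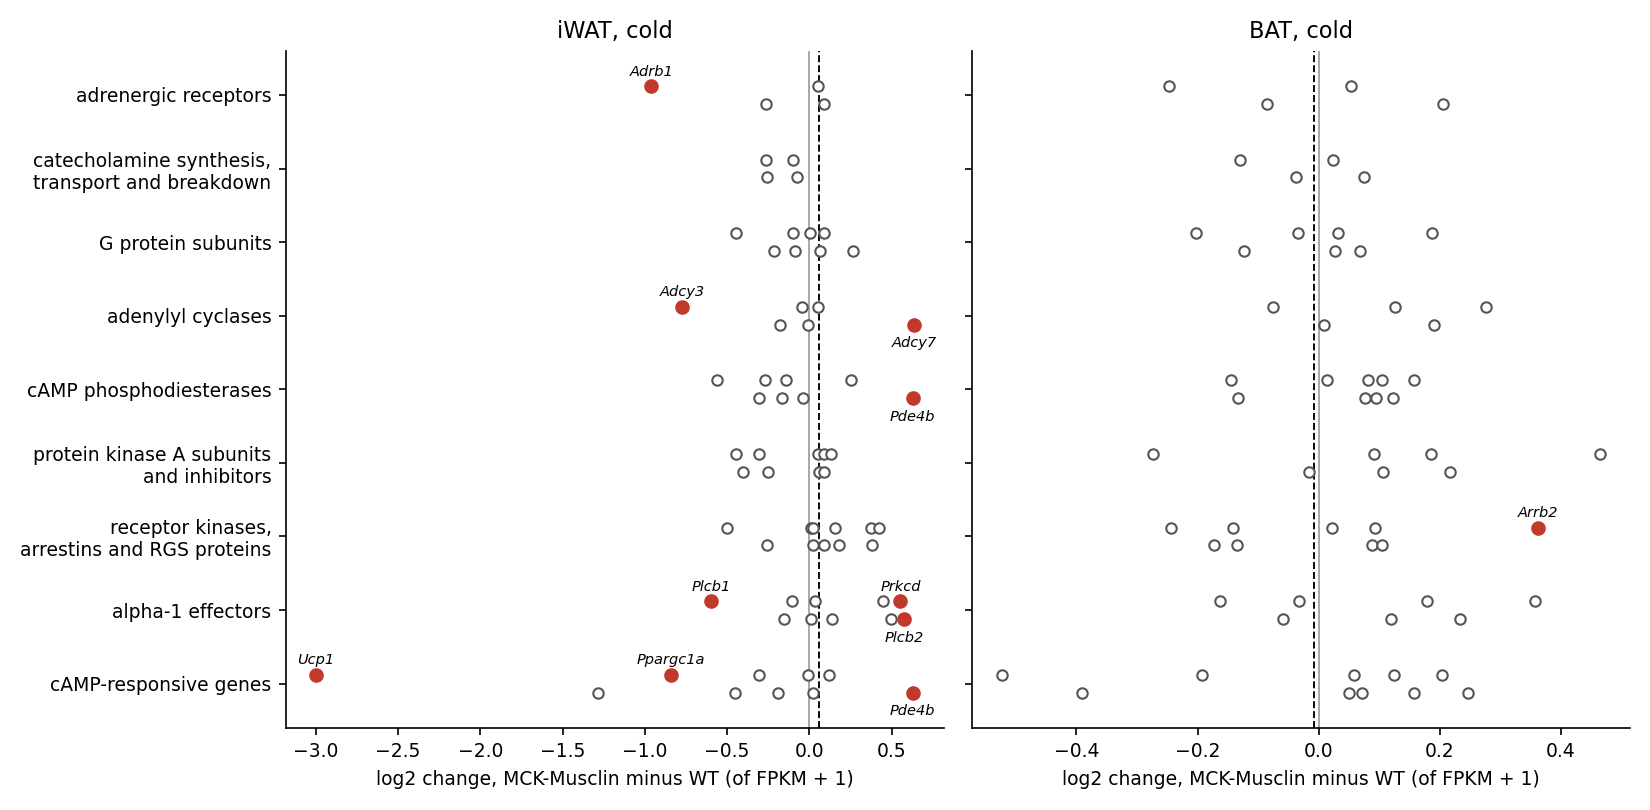
Log2 change of MCK-Musclin against WT (horizontal axes, which differ between the panels) of the receptor genes and of the genes of the 8 lists (vertical axis) in cold iWAT and cold BAT, with 1 point per gene, filled red where past the cutoff and a dashed line at the median of all genes tested (0.06 and -0.01). Of the listed genes 8 are past the cutoff in iWAT and 1 in BAT, and the split in iWAT, 4 higher and 4 lower, becomes 9 and 1 when centred on adipocyte markers.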

How the data were processed

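RNA-Seq of 19 mouse libraries was used, from 7 tissues of WT mice and from both fat depots of cold-exposed controls and MCK-Musclin animals, 3 libraries in each of 4 groups. The values are FPKM per gene and library, as deposited by the authors, who filtered reads with fastp and Bowtie2, aligned them to mm10 (GRCm38) with HISAT2 2.1.0, counted fragments of both strands together and obtained FPKM from StringTie, by the study's methods. The labels differ from the methods in the Bowtie2 version and list Cuffdiff, and which applies was not settled. RNA of white fat was extracted with a kit and that of other tissues with TRIzol, and libraries were made with a SMART RNA-Seq kit. The iWAT table also holds the authors' own comparison of the genotypes (log fold change, p-value, FDR and mean signal per group), which was not used here, and how its genes were selected is not stated. In the tables of tissues and of BAT each, 287 lines repeat a gene and each gene was used once. Read counts were not used here.

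Genotypes were compared within each table in R 4.3.3 by limma 3.58.1 (lmFit and eBayes, trend on) with statmod 1.5.0, on log2(FPKM + 1), over genes with a mean of at least 1 FPKM over 6 libraries, with Benjamini-Hochberg adjustment over all of them. The cutoff in the study's legends was an unadjusted p under 0.05 with a log2 change beyond 0.5 in iWAT and 0.3 in BAT. The difference between depots was fitted over 12 libraries, and levels were not tested across tables, which were normalised separately. For single members an exact permutation test, two-sided, was run. Tissue folds have 0.1 added to each FPKM and no test. Python 3.11.15, numpy 2.4.6, pandas 2.3.3, scipy 1.17.1 and matplotlib 3.10.9 were used.

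Genes named are the 6 members with Adra1d and Adra2c, any gene of the pathway lists (catecholamine synthesis, transport and breakdown; G protein subunits; adenylyl cyclases; cAMP phosphodiesterases; protein kinase A subunits and inhibitors; receptor kinases, arrestins and RGS proteins; alpha-1 effectors; cAMP-responsive genes), marker genes of tissues and cell types, and the 5 genes most like each member over the tissues, leaving out predicted genes. An item of the naming rule is not reported here. The members and lists were chosen with earlier results of these data known. Positions are from the GRCm38 annotation and the promoter from RefSeq. A depth was read from steps between low FPKM values, within 1% of a step and up to 20 fragments.

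Alternatives tried were another pseudocount (0.1 or 0.01), no filter or a mean of at least 5 FPKM, rescaling to TPM, median-ratio scaling, centring on the general adipocyte markers, robust eBayes, the replicate number as a block, and leaving out each library in turn.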

Additional observations from a re-analysis of the deposited data

How the results depend on the processing

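In iWAT, Adrb1 kept its direction in the 3 rescalings, the alternatives that could have reversed it (a mean of at least 5 FPKM removes it), and passed the adjusted test in 1, centred on adipocyte markers (log2 change -0.76). A pseudocount of 0.1 or 0.01 gave -1.37 or -1.44. Leaving out single libraries gave -1.12 to -0.80 for Adrb1, -0.13 to 0.25 for Adrb3 and -0.43 to -0.05 for Adra1a, and Adrb3 reversed under TPM (-0.0015) and median-ratio scaling (-0.028). The count past the cutoff was 1857 when centred and 619 to 1057 with a library left out. The count by adjusted p was 1941 when centred and 0 to 86 with a library left out, at 86 without WT 1, 2 without MCK-Musclin 2 and 1 without MCK-Musclin 3. Groups did not overlap for 5505 genes when centred. The share of called genes that were higher was 84.8%, and 75.7% under TPM, 69.4% with median-ratio scaling and 98.6% when centred.

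In BAT, leaving out single libraries gave -0.35 to 0.051 for Adrb1, -0.62 to 0.050 for Adrb3 and 0.10 to 0.37 for Adra1a. The counts were 216 past the cutoff with a mean of at least 5 FPKM, 407 to 581 with a library left out, and 1 to 4 by adjusted p. Groups did not overlap for 621 genes with a mean of at least 5 FPKM and for 1970 without a filter. The share higher was 46.3%, and 56.5% under TPM and 71.6% when centred.

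The difference between depots kept its direction in 15 of 15 alternatives for each member, at -1.03 to -0.61 for Adrb1, 0.0016 to 0.67 for Adrb3 and -0.64 to -0.25 for Adra1a with a library left out. Among tissues, Adrb1 reversed under TPM (1.10, brain over brown adipose tissue), Adra2b with median-ratio scaling (1.34), and the Adrb3 fold moved to 24.8 and 9.22. The causes were not tested. Deviations of libraries of equal replicate number had an r over genes of 0.235, 0.0615 and 0.107 in iWAT, 2 of 3 above 0.1 (-0.1804 to 0.0702 for unequal numbers), and -0.0951 to 0.00937 in BAT (-0.0842 to 0.0795), and with the number as a block 774 and 460 genes were past the cutoff. Values are FPKM from 3 libraries a group, so levels near 0 are set by a few fragments, the exact test cannot go below 0.1, and 1 library per tissue gives no spread.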
